A study of Rattus norvegicus with 4 samples.

Results

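Interferon-stimulated antiviral genes are genes that cells switch on when they detect virus or interferon. A list of 47 such genes, chosen by name with earlier results of these data known, was matched exactly to the gene symbols of a rat expression array. Of the 47 genes, 41 had a named probe set among the 14217 genes named on the array, and the brightest probe set of each gene was read. The other 6 (Trim21, Oasl2, Samd9l, Gbp5, Ifi47 and Xaf1) were not analysed here. A floor of 100.5, the median signal of all non-control probe sets, separated usable from dim signals. Above the floor on at least 1 array were 40 of the 41 genes and 10407 of all genes. The exception was Zbp1, a sensor of unusual nucleic acids, whose 4 signals lay between 20.1 and 44.9.

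Granulosa cells surround the oocyte in the ovarian follicle and make its steroid hormones. Those used here came from female Sprague-Dawley rats, 23 to 25 days old and treated with estradiol, and were cultured without serum on dishes precoated with it. An adenoviral vector was added for 4 h, and the cultures then received follicle-stimulating hormone (FSH, 100 ng/ml) or vehicle for 24 h. The vector encoded green fluorescent protein (GFP) in the groups GFP vehicle and GFP FSH. In FOXOA3 FSH it encoded FOXOA3, a FOXO1 protein made constitutively active, and in FOXOA3-mDBD FSH the same protein with its DNA-binding domain mutated. The arrays of these last groups are called the FOXO1 form arrays here. All 4 groups had received an adenovirus, so that none of them shows these genes without a virus, and the viral dose was not given in the labels. Each group was 1 array, so that no value carries a replicate error, no difference has a replicate check and no p-value is given.

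Interferons bind receptors on the cell surface, which activate the kinases JAK1 and TYK2. These phosphorylate STAT2, which joins IRF9 in a complex that binds a DNA element called the interferon-stimulated response element (ISRE). The genes switched on in this way encode sensors of viral RNA, a ubiquitin-like modifier, enzymes that block viral replication, chemokines and further transcription factors such as IRF7. Cells that meet viral nucleic acid can also switch on part of this set directly through IRF3 and IRF7. Interferon gamma acts mainly through another DNA element, called GAS. In granulosa cells, FSH acts through cyclic AMP and drives steroid synthesis, and FOXO1 is one of the factors that restrain the FSH program.

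The promoters are shown because these genes share a feature that their choice by name did not use. RefSeq promoter windows of the GRCr8 build, with 250 bases before and 50 bases after the annotated start, were found for 38 of the 47 genes. The ISRE core, GAAA followed by NN (any bases) and GAAA again, was searched on both strands. It was present in 25 of the 38 windows (65.8%), against 3.92% of all 33469 windows in the table. The shorter core GAAANNGAA was present in 26 of the 38, against 9.71% of all windows, and every match to the longer core also contains it. The following lines give up to 25 bases on either side of the core for 6 genes. These are the genes whose signals differed by at least 4-fold between arrays and whose window carries the core before the start, shown with the core in capitals, 5′ to 3′ on the strand of the gene.
Cxcl10, chr14:15988816-15988857, plus strand: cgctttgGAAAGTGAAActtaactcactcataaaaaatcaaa
Ifih1, chr3:67683993-67684052, minus strand: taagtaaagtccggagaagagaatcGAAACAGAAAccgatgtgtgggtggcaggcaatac
Ifit3, chr1:241527257-241527316, plus strand: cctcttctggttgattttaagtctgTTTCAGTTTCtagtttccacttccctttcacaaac
Irf7, chr1:205800058-205800117, minus strand: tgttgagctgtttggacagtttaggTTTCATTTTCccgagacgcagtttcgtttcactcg
Irgm, chr10:33742579-33742637, minus strand: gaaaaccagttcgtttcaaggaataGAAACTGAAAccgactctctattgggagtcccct
Rsad2, chr6:48788233-48788292, minus strand: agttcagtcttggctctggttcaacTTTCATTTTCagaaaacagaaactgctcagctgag

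The core of Irf7 begins 69 bases before the start, that of Ifih1 59, that of Ifit3 44, that of Irgm 34, that of Rsad2 147 and that of Cxcl10 243. Ifit3, Irf7 and Rsad2 carry it on the opposite strand, as TTTC on both sides of the spacer. The GAS core TTCNNNGAA was present in 11 of the 38 windows (28.9%), against 8.87% of all windows. The FOXO core GTAAACA, a search added after the data had been seen, was present in 2 of the 38 (5.26%), Gbp2 and Rsad2, against 3.78% of all windows. A match is a run of letters in this window and does not show that a factor was bound. No window was found for Dhx58, Zbp1, Isg15, Usp18, Mx2, Ifit1, Ifit2, Ifitm1 and Samd9l.

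**Figure D1:**
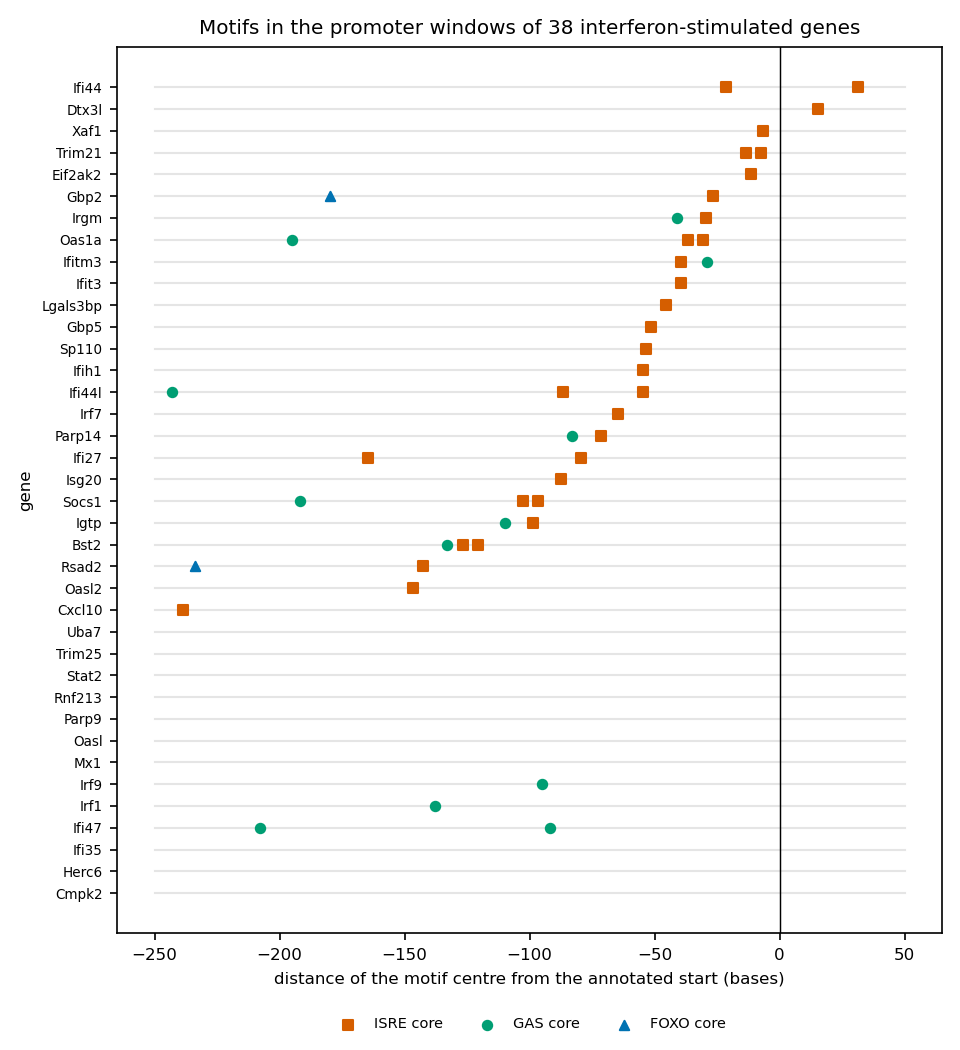
Each row is 1 of the 38 promoter windows, and the horizontal axis gives the distance of a motif's centre from the annotated start in bases. Squares mark the ISRE core (25 genes), circles the GAS core (11 genes) and triangles the FOXO core (2 genes).

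The deposited signals had nearly equal trimmed means on the 4 arrays, between 500.1 and 500.2. Sets of 4 values are given throughout in the order GFP vehicle, GFP FSH, FOXOA3 FSH, then FOXOA3-mDBD FSH. Over 27 probe sets for bacterial poly-A control transcripts, the geometric means were 19.3, 249.0, 19.7 and 310.8, so that these controls were bright on GFP FSH and FOXOA3-mDBD FSH alone. Beta-actin had 3′ to 5′ ratios of 5.15 to 12.0. Endogenous and vector transcripts of Foxo1 could not be told apart, and its signals were 8149.2, 2862.4, 3834.5 and 960.9. Of 13 granulosa markers on the array, 11, 12, 12 and 11 were above the floor, with summed signals of 35747, 121195, 52207 and 34691. Leukocyte markers, of which 15 of 16 were on the array, had 4, 2, 7 and 4 above the floor, with summed signals of 3278, 2000.2, 4833.6 and 2179.6. The monocyte genes Cd14, at 2167.3, 726.7, 2577 and 1012.3, and Lyz2, at 376.1, 592.2, 1265.9 and 511.7, were 3.55-fold and 2.14-fold higher with FOXOA3 than on GFP FSH. Ptprc, the common leukocyte antigen, and the T cell gene Cd3e were under the floor on all 4 arrays. Theca and stroma markers summed to 7252, 1199, 20878 and 665.4, and endothelial markers to 485.8, 306.1, 472.9 and 587.2. The part of these controls and cell types in the results was not tested, except where a value is given beside a result.

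Most of the genes were brighter on the FOXO1 form arrays than on either GFP array. For 28 of the 40 genes both FOXO1 form signals lay above both GFP signals, against 15.1% of all genes. For 14 of the 40 the lower FOXO1 form signal was at least 2-fold above the higher GFP signal, against 1.29% of all genes. The median of this ratio was 0.48 on the log2 scale over the 40 genes and -0.57 over all genes. It can be negative for a gene that does not differ, since it sets the lowest of one kind against the highest of the other. Each kind of vector here includes 1 array with bright and 1 with dim poly-A controls. In the opposite direction, 1 of the 40 genes, Irf1, had both FOXO1 form signals below both GFP signals, against 18.4% of all genes, and 0 did so by 2-fold, against 0.538%. Of the 40 genes, 9 were above the floor on FOXO1 form arrays only, where 7.97% of all genes were. Over a GFP array these 9 could be level or higher but not lower. The counts given here and below include them wherever they were measured. In total RNA from a culture, fewer cells of a type and less RNA per cell cannot be told apart.

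**Figure D2:**
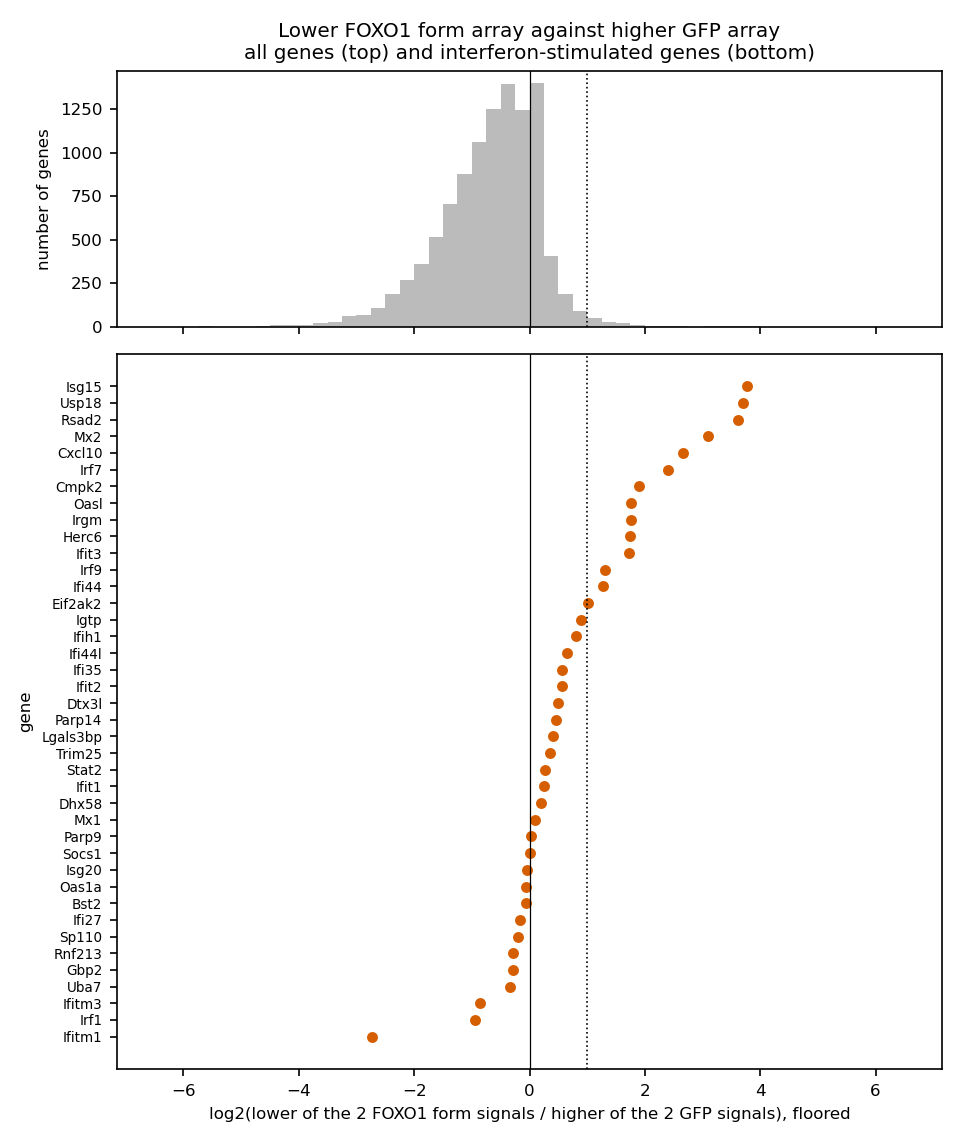
The top panel counts all 10407 genes and the bottom panel shows the 40 interferon-stimulated genes by the log2 ratio of the lower FOXO1 form signal to the higher GFP signal. The solid line marks equality and the dotted line 2-fold, which 14 of the 40 genes reach, from Isg15 at 13.6-fold down to Eif2ak2 at 2.03-fold.

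With FOXOA3, 21 of 39 measured genes were at least 2-fold above GFP FSH, where 11.1% of all genes were, and 0 were lower, where 6.99% were. Their median log2 ratio was 1.19, against 0.039 over all genes. With FOXOA3-mDBD, 20 of 40 were higher than GFP FSH, where 12.5% of all genes were, and 0 were lower, where 19.1% were. Their median was 0.98, against -0.16 over all genes. Over the same array, 8 of 12 measured granulosa markers were at least 2-fold lower with FOXOA3 and 10 of 12 with FOXOA3-mDBD, with medians of -1.25 and -2.04. Over GFP vehicle, 0 of 12 were lower and 2 higher with FOXOA3, and 5 of 12 were lower and 2 higher with FOXOA3-mDBD. The part of the granulosa markers in the result was not tested. Both comparisons use the GFP FSH array, so their counts are not independent. A gene counted as measured where the brighter of its signals was above the floor, and dimmer signals were raised to the floor, so that folds written "at least" are lower bounds. With a floor at the 75th percentile in place of the median, 11 of 28 and 9 of 30 genes were higher, where 6.64% and 11.2% of all genes were. With each array centred on its median gene, 25 of 40 were higher with FOXOA3-mDBD, while all genes split into 1573 higher and 1445 lower, in place of 1221 and 1866.

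A choice of arrays with like poly-A controls, made after the data had been seen, gives a pair of comparisons that share no array. FOXOA3 FSH against GFP vehicle had 22 of 38 genes higher, where 5.32% of all genes were, and 0 lower, where 4.01% were, with a median log2 ratio of 1.11 against 0.013. This comparison differs in hormone as well as vector. FOXOA3-mDBD FSH against GFP FSH is the comparison with 20 of 40 genes higher given above. In both together 15 of 38 genes were at least 2-fold higher, where 2.08% of all genes were, and 0 were lower in both, where 1.6% were. Under a 75th percentile floor this count was 7, where 1.14% of all genes were, and the count of 14 genes that stood above both GFP arrays was 7 as well, where 0.72% of all genes were. FOXOA3-mDBD FSH against GFP vehicle, which crosses the control state, had 22 of 40 genes higher, where 13% of all genes were, and 1 lower, Ifitm1, where 22.5% were.

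A limit of 4-fold left fewer genes. Over GFP FSH it was reached by 8 of 39 genes with FOXOA3, where 2.34% of all genes reached it, and by 11 of 40 with FOXOA3-mDBD, where 3.94% did. In both, 0 were lower by 4-fold, where 0.644% and 3.55% of all genes were. Over GFP vehicle it was reached by 8 of 38 with FOXOA3 (1.31% of all genes) and 11 of 40 with FOXOA3-mDBD (3.63%), and 0 and 1 were lower (0.384% and 5.19%). These counts read the same way against all genes as those at 2-fold. At 1.5-fold, 24 genes were higher and 1 lower with FOXOA3 than on GFP FSH, where 22.5% and 18.1% of all genes were, and 26 were higher and 3 lower with FOXOA3-mDBD, where 21.7% and 32.9% were. Over GFP vehicle, 29 genes were higher by 1.5-fold with FOXOA3 (12.7% of all genes) and 29 with FOXOA3-mDBD (22.6%), and 0 and 1 were lower (11.3% and 34.5%).

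**Figure D3:**
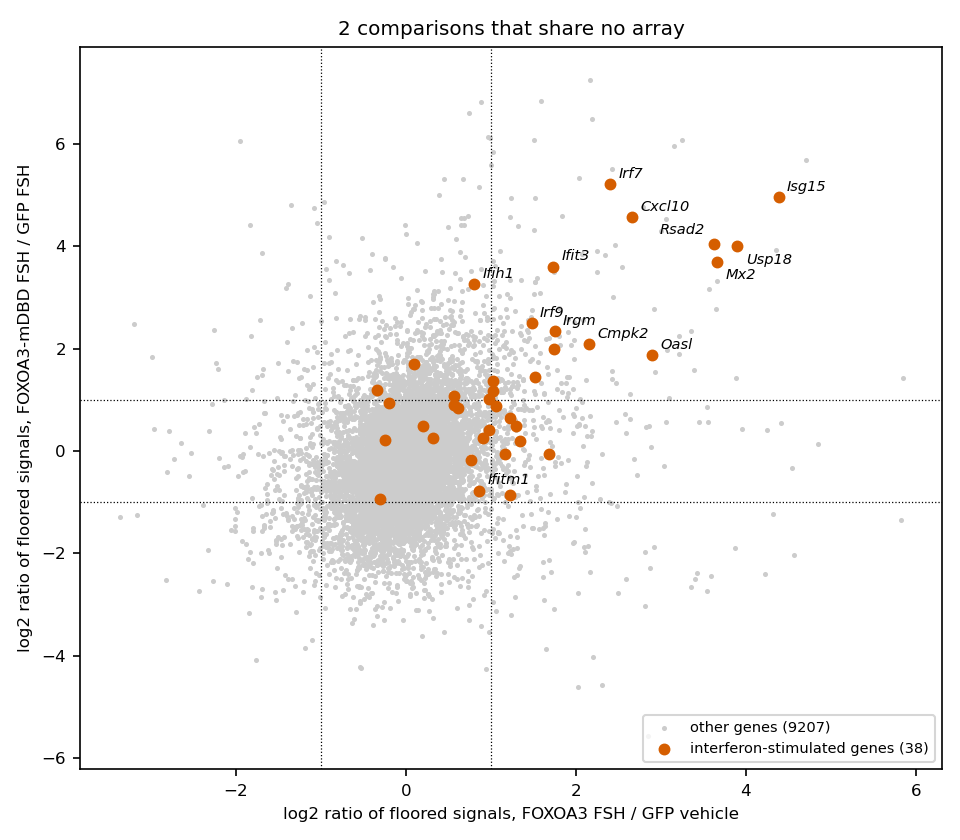
Each point is a gene measured in both comparisons, with the log2 ratio of FOXOA3 FSH to GFP vehicle on the horizontal axis and of FOXOA3-mDBD FSH to GFP FSH on the vertical axis; orange points are the 38 interferon-stimulated genes. Dotted lines mark 2-fold, and 15 of the 38 lie above 2-fold in both, with Isg15 farthest to the right among them.

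Among the transcription factors, Irf7 and Irf9 had the widest differences. Irf7, the factor that amplifies interferon production, had signals of 329.1, 151.9, 1742.5 and 5623.3. It was 11.5-fold higher with FOXOA3 and 37.0-fold with FOXOA3-mDBD than on GFP FSH, and both FOXO1 form signals were above both GFP signals. Irf9, the DNA-binding partner of the STATs, had signals of 595.5, 260.7, 1660.3 and 1467.8. Its folds over GFP FSH were 6.37 and 5.63, and its other probe set gave 7.11 and 6.09. Stat2, its partner, was at 592.8, 399, 908.5 and 709.8. Here too both FOXO1 form signals were the higher ones, with folds over GFP FSH of 2.28 and 1.78, and of 2.29 and 3.04 by its other probe set. Irf1, a factor that responds mainly to interferon gamma, went the other way, at 652.1, 891.5, 529.5 and 463.7, and was named after its values had been seen. It was 1.92-fold lower with FOXOA3-mDBD than on GFP FSH, within the 2-fold limit.

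All measured sensors of viral RNA had both FOXO1 form signals above both GFP signals. Ifih1, which encodes the long double-stranded RNA sensor MDA5, had signals of 152.6, 78.4, 266.2 and 962.1. It was under the floor on GFP FSH and at least 2.65-fold higher with FOXOA3 and at least 9.57-fold higher with FOXOA3-mDBD. Eif2ak2, the protein kinase PKR that halts translation, had 626.3, 552, 1269.8 and 1432.1. It was above the floor on all 4 arrays, with folds over GFP FSH of 2.30 and 2.59. Of the 3 measured sensors, 3 were at least 2-fold higher with FOXOA3 and 2 with FOXOA3-mDBD, where 11.1% and 12.5% of all genes were. The other one was Dhx58, a regulator of the RNA sensors, at 47.5, 20.9, 255.2 and 115.7, named after its values had been seen. It was under the floor on both GFP arrays, so that it could not have counted as lower than them. Some of its probe sets are of a kind that can pick up related transcripts, and the 3 of them gave folds of at least 1.91 to at least 2.54 with FOXOA3. With FOXOA3-mDBD, 1 was under the floor on both arrays, and the others gave at least 2.005 and at least 1.15, so that whether Dhx58 reached 2-fold depended on the probe set.

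The largest ratio of all was that of a ubiquitin-like gene. Isg15, the modifier that is attached to proteins during the antiviral response, had signals of 79.3, 154.4, 2103.3 and 4805.3. It was 13.6-fold and 31.1-fold higher than on GFP FSH, and at least 47.8-fold higher with FOXOA3-mDBD than on GFP vehicle, where it was under the floor. Usp18, the protease that removes ISG15 and damps receptor signalling, had 124.1, 60.2, 1854.3 and 1620.4. It was at least 18.5-fold and at least 16.1-fold higher than on GFP FSH, with similar signals on the FOXO1 form arrays. Of the 7 measured genes of this group, 4 were higher with FOXOA3 and 4 with FOXOA3-mDBD than on GFP FSH, where 11.1% and 12.5% of all genes were. Trim25, the ubiquitin ligase that activates the RNA sensor RIG-I, had 1498.7, 2739.8, 3506 and 4273.6 and stayed within 2-fold of GFP FSH. Herc6, an ISG15 ligase of rodents, was named after its values had been seen, since it lay just short of the 4-fold limit for giving all signals. It had 46.1, 13.4, 337.1 and 400, so that it was above the floor on the FOXO1 form arrays alone.

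**Figure D4:**
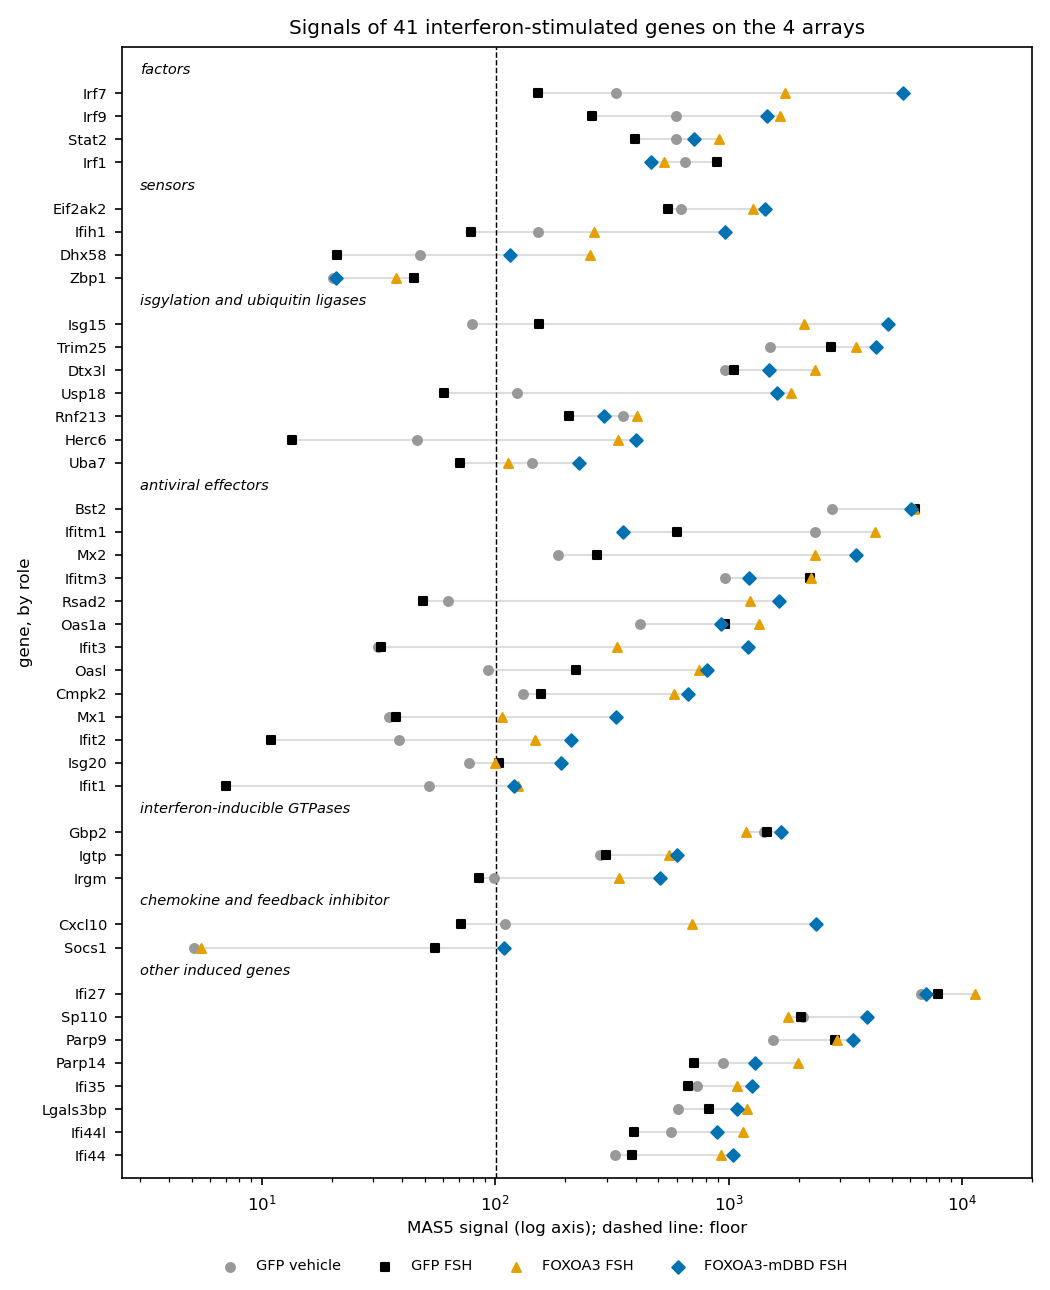
Each row is 1 of the 41 genes, grouped by role, and the horizontal log axis gives the deposited MAS5 signal on the 4 arrays, each with its own symbol. The dashed line is the floor of 100.5, and in most rows the triangle and diamond of the FOXO1 form arrays lie to the right of both GFP arrays, as in 28 of the 40 genes above the floor.

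Antiviral effectors divided into strongly differing and nearly level genes. Rsad2, the enzyme viperin that makes a chain-terminating nucleotide, had signals of 62.7, 48.9, 1236 and 1645.9. It was at least 12.3-fold and at least 16.4-fold higher than on GFP FSH, and under the floor on both GFP arrays. Cmpk2, a nucleotide kinase that supplies it and whose gene lies directly next to Rsad2 in the RefSeq gene order, had 130.9, 157.3, 583.6 and 667.7. Its folds were 3.71 and 4.24, and by a dimmer probe set at least 2.29 and at least 1.40. Mx2, a GTPase that traps viral components, had 186, 273.9, 2348.3 and 3533.1. It was 8.57-fold and 12.9-fold higher, and its other probe set gave at least 10.1-fold and at least 16.1-fold.

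Ifit3, which binds foreign RNA together with its relatives, had signals of 31.5, 32.4, 333.2 and 1217.2. It was at least 3.32-fold and at least 12.1-fold higher than on GFP FSH. Oasl, a relative of the enzymes that activate RNase L, had 93, 221.8, 747.8 and 810.3. Both FOXO1 form signals were above both GFP signals, by 3.37-fold and 3.65-fold over GFP FSH. The effectors as a group had 6 of 13 genes higher with FOXOA3 and 7 of 13 with FOXOA3-mDBD, where 11.1% and 12.5% of all genes were. Their medians were 0.56 and 1.07, against 0.039 and -0.16 over all genes. Mx1, Ifit1 and Ifit2 were under the floor on both GFP arrays and at most 328.5 on the FOXO1 form arrays. Probe sets of such gene families can read more than 1 relative, so that the split between Mx1 and Mx2, among the Ifit genes and among the Oas genes is uncertain.

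Bst2, Ifitm3 and Oas1a had their lowest signal on GFP vehicle, as did 18 of the 40 genes in all, so that this does not set them apart. The same count over all genes was not computed. Ifitm3 and Oas1a were named after their values had been seen. Bst2, the tetherin that holds budding virus at the cell surface, had 2764.1, 6320.3, 6219.4 and 6050.9, with nearly level signals on the arrays with FSH. Oas1a, an oligoadenylate synthetase, had 419.4, 968, 1350.3 and 931.8, and Ifitm3, which blocks viral entry, 967, 2226.3, 2257.8 and 1225.8. With FSH under the control vector Bst2 was 2.29-fold, Oas1a 2.31-fold, Ifitm3 2.30-fold and Oasl at least 2.21-fold higher. These 4 of 31 measured genes were higher with FSH, where 6.84% of all genes were. Lower with FSH were 3 of 31, where 11.1% of all genes were, namely Ifitm1 by 3.88-fold, Irf9 by 2.28-fold and Irf7 by 2.17-fold. The median log2 ratio for FSH was 0.048, against -0.0027 over all genes. At 1.5-fold, 7 were higher and 5 lower, where 17.7% and 21.7% of all genes were, and at 4-fold 0 in either direction, where 1.38% and 2.45% were.

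Ifitm1, an entry blocker and the neighbour of Ifitm3 in the RefSeq gene order, departed from the rest. Its signals were 2345.1, 603.8, 4253.8 and 352.9, so that it was high on GFP vehicle and FOXOA3 FSH and low on the other arrays. It was 7.05-fold higher with FOXOA3 than on GFP FSH, but 12.1-fold lower with FOXOA3-mDBD than with FOXOA3. The arrays where it was high are those with dim poly-A controls. Among the markers of theca and stroma, the collagen Col3a1 was ordered in the same way, at 2606.9, 170, 7556.3 and 82, as was Dcn, at 624.1, 485.2, 12504.1 and 205.7. Acta2, at 3710.6, 192.4, 593.7 and 214.6, and Lum, at 241.5, 215.8, 98.8 and 97.8, were not, and Cyp17a1 was under the floor on all 4 arrays. The part of these in the result was not tested.

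The interferon-inducible GTPases and the secreted genes were few. Irgm, a GTPase that acts on compartments holding pathogens, had 98.8, 85.1, 338.4 and 510.9. It was at least 3.37-fold and at least 5.08-fold higher than on GFP FSH. Gbp2, a guanylate-binding protein, stayed within 2-fold, at 1413.4, 1460.1, 1193.3 and 1685.6. Cxcl10, a chemokine that attracts T cells, had 110.3, 71.2, 699.8 and 2371.7. It was at least 6.96-fold and at least 23.6-fold higher than on GFP FSH, and both FOXO1 form signals were above both GFP signals. Socs1, an inhibitor of the receptor kinases, passed the floor on FOXOA3-mDBD FSH alone, at 108.6. Among the 8 remaining genes 3 were higher with FOXOA3 and 2 with FOXOA3-mDBD than on GFP FSH, where 11.1% and 12.5% of all genes were. Ifi27, a mitochondrial and nuclear membrane protein, had 6710.3, 7870.1, 11385 and 6996.4, with the highest signal on FOXOA3 FSH.

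In all, 9 of the 40 genes were above the floor on FOXO1 form arrays only, where 7.97% of all genes were. Such genes enter a comparison with a GFP array only through the FOXO1 form array where they are bright. They could not have counted as lower in such a comparison. Of the others, 24 were above the floor on all 4 arrays. The number of genes above the floor per array was 28, 27, 38 and 40. Of all non-control probe sets, 49.6%, 47.9%, 52.8% and 49.7% were above it. The floor is the median of those probe sets, whereas each gene was read by its brightest probe set. These shares thus compare the arrays and are no background for the gene counts. The share over all named genes per array was not computed.

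The mutant was set against the active form directly. Of 40 measured genes, 8 were at least 2-fold higher with FOXOA3-mDBD than with FOXOA3, where 9.24% of all genes were, and 2 were lower, where 19% were. The median log2 ratio was 0.17, against -0.21 over all genes. Ifit3 was 3.65-fold higher, Ifih1 3.61-fold, Cxcl10 3.39-fold, Irf7 3.23-fold, Mx1 3.06-fold, Isg15 2.28-fold, Sp110 2.18-fold and Uba7 2.02-fold. By their brightest probe sets, Usp18, Irf9, Oasl, Cmpk2, Rsad2, Mx2 and Irgm had ratios between 0.87 and 1.51. The dimmer probe set of Cmpk2 was lower with FOXOA3-mDBD, at 140.8, than with FOXOA3, at 230.3. The 2 genes counted as lower were Ifitm1 and Dhx58, the latter by 2.21-fold with its brightest probe set. For Dhx58, 1 of the other probe sets was not lower, at 191.6 with FOXOA3 and 201.5 with FOXOA3-mDBD. With the arrays centred on their median gene, 9 were higher and 1 lower, and all genes split into 1383 higher and 1298 lower in place of 932 and 1913. At 1.5-fold, 11 were higher and 6 lower, where 18% and 33.7% of all genes were, and at 4-fold 0 were higher and 1 lower, where 2.15% and 3% were. The highest of the 4 signals was on FOXOA3-mDBD FSH for 24 of the 40 genes, on FOXOA3 FSH for 14 and on GFP FSH for 2. The same split over all genes was not computed, so that these counts have no background. They include the 9 genes above the floor on FOXO1 form arrays only, which could be highest only there.

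**Figure D5:**
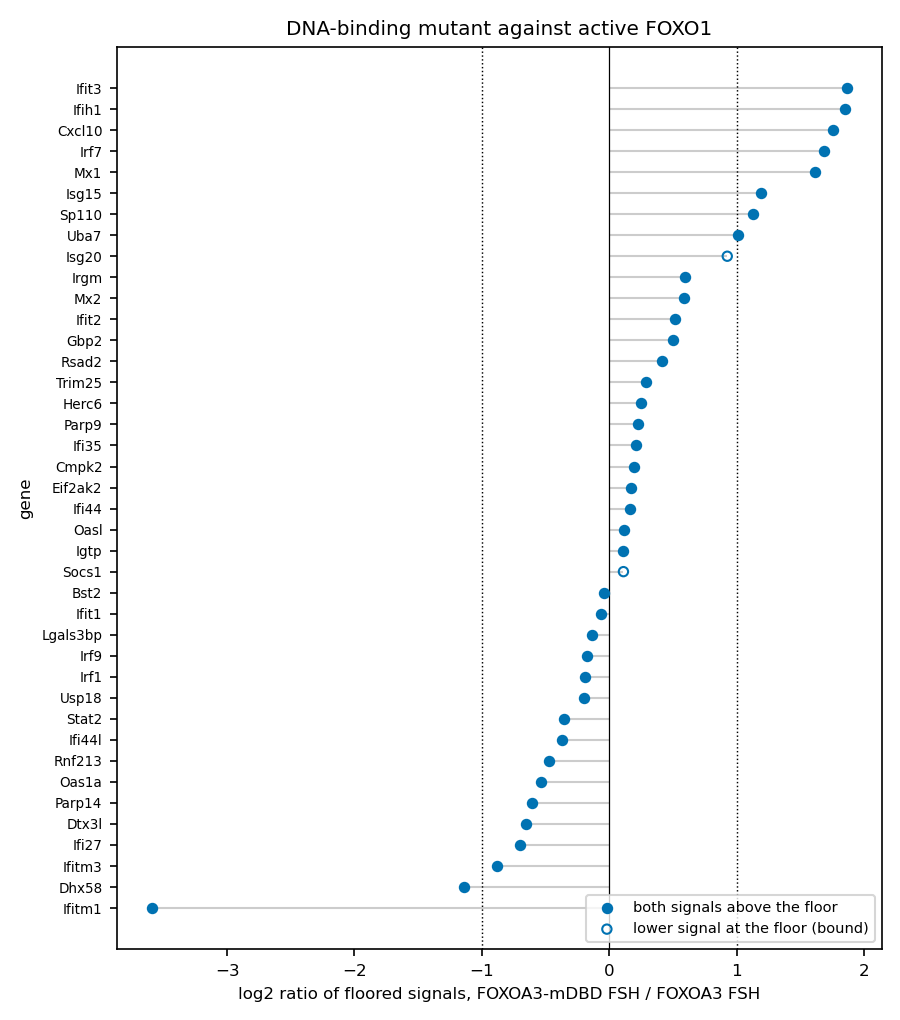
Each of the 40 measured genes is a row, and the horizontal axis gives the log2 ratio of FOXOA3-mDBD FSH to FOXOA3 FSH, with dotted lines at 2-fold and open circles for lower bounds. Ifit3, Ifih1, Cxcl10 and Irf7 lie highest and Ifitm1, at -3.59, lies lowest.

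The other genes of the pathway, from interferons to NF-kB, were taken from a list of 50 symbols, of which 33 were named on the array and 25 were measured. With FOXOA3 3 were higher and 3 lower than on GFP FSH, and with FOXOA3-mDBD 2 were higher and 3 lower, with medians of 0.34 and -0.17. Over all genes 11.1% and 6.99%, and 12.5% and 19.1%, were higher and lower, so that these counts lay near the background or, for lower genes with FOXOA3-mDBD, under it. Of the 9 interferon genes listed, Ifna1, Ifna2, Ifna4, Ifne, Ifnl1 and Ifnl3 had no named probe set and were not read. The 3 on the array, Ifnb1, Ifnk and Ifng, were under the floor on all 4 arrays. The highest signal among them was that of Ifnb1 on FOXOA3 FSH, at 30.6. The receptor chain Ifnar1 had 433, 531.6, 321.2 and 440.6, which shows no order by vector. Ifnar2, the chain that pairs with it, had 825.3, 810.8, 624.9 and 218.2, with the lowest signal on FOXOA3-mDBD FSH, where it was 3.72-fold below GFP FSH.

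Jak2, a kinase of the interferon gamma receptor, had 207.6, 161.6, 311 and 813.7, with its highest signal on FOXOA3-mDBD FSH at 5.04-fold over GFP FSH. Traf3, an adaptor between the sensors and IRF3, had 493.9, 1260.7, 576.8 and 227.5, and was highest on GFP FSH. Ifngr1, the ligand-binding chain of the interferon gamma receptor, had 1842.2, 1747.6, 3228.5 and 2664.4, and both FOXO1 form signals were the higher ones. Ifngr2 stayed between 1089 and 1292, Il10rb between 445.1 and 793.1, and Ifnlr1 under the floor. Stat3 had 1570.3, 1833.5, 1535.1 and 862.5. The NF-kB subunit Rela had 2606.9, 1006.5, 2218.8 and 534.6, and its inhibitor Tnfaip3 495.6, 490.3, 789.2 and 252.9. Both were lowest on FOXOA3-mDBD FSH.

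Among genes with a promoter window, the longer ISRE core was as frequent in those at least 2-fold above both GFP arrays as in the rest. Isg15, Usp18 and Mx2 had no window and are missing here, though they stood 13.6-fold, 13.1-fold and 8.57-fold above both GFP arrays. Among the 33 genes with a promoter window and a signal above the floor, 7 of the 21 with the core and 4 of the 12 without it were at least 2-fold above both GFP arrays. The median log2 ratio of the lower FOXO1 form signal to the higher GFP signal was 0.50 with the core and 0.31 without it. Oasl, Cmpk2, Irf9 and Herc6 reached 2-fold without the longer core in their window, though Cmpk2 carries the shorter core GAAANNGAA. By the shorter core, 8 of the 22 genes with it and 3 of the 11 without it reached 2-fold, with medians of 0.57 and 0.26. Genes that lie next to each other in the RefSeq order did not always go together. Rsad2 and Cmpk2 were both higher on the FOXO1 form arrays, as were Ifi44 and Ifi44l, while Ifitm1 and Ifitm3 differed in order.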

How the data were processed

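The authors deposited linear intensity values for 31099 probe sets on each of 4 rat arrays. MAS5 is named in the submitters' processing notes, without a version. It subtracts mismatch signal and sets every array to 1 common mean, so that dim probe sets give noisy ratios and differences in total RNA are hidden.

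Of the probe sets, 57 were controls, 20826 had 1 gene symbol in the platform annotation, 436 had several and 9780 had none. Only those with 1 symbol were named, and the brightest probe set per gene was used. Signals under the floor of 100.5 were raised to it, log2 was taken, and a fold of 2 counted as higher or lower. With 1 array per group no test was run, and the number of arrays limits the precision. All 4 signals are given for genes with a largest fold of 4 or more between arrays, for the brightest gene of a role, and for pathway genes with a fold of 3 or more or that are receptors or STATs. The members and lists were chosen with earlier results of these data known. The comparison of both FOXO1 forms with both GFP arrays, the count in the comparisons that share no array, and the FOXO motif were added after the data had been seen. The sorting of the genes by the ISRE core was not in the plan either. The steps were tested on simulated data. Python 3.11.15, pandas 2.3.3 and statsmodels 0.14.6 were used.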

Additional observations from a re-analysis of the deposited data

How the results depend on the processing

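No paired analysis was possible because each group was 1 array. Alternatives were other floors (25th or 75th percentile, or none with log2(signal + 1)), quantile normalization, centring, loess, the mean of all probe sets and other fold limits. For the 13 genes whose signals differed by at least 4-fold between arrays, the ones run here, no called ratio changed sign under any of them; 440 of their values stayed within 1.5-fold and 68 moved further. Under the 75th percentile floor, where fewer genes are measured, the genes higher were 2 for FSH (1 lower), 11 for FOXOA3 and 9 for FOXOA3-mDBD over GFP FSH, 5 for FOXOA3-mDBD over FOXOA3 (1 lower), 14 and 12 for FOXOA3 and FOXOA3-mDBD over GFP vehicle, and 7 for both counts over the GFP arrays. The shares of all genes there were 5.6% and 7.21% for FSH, 9.24% and 10.5% for FOXOA3-mDBD over FOXOA3, and 3.25% and 12.3% higher over GFP vehicle. At 4-fold the counts of higher genes were 0 (0 lower), 8, 11, 0 (1 lower), 8 and 11, and 6 and 7. For the counts of 6 and 7, the shares of all genes were 0.24% and 0.357%. At 1.5-fold 7 were higher and 5 lower for FSH, and 1, 3 and 6 were lower for FOXOA3 over GFP FSH, FOXOA3-mDBD over GFP FSH and FOXOA3-mDBD over FOXOA3. With the 25th percentile floor 5 were lower for FSH and 1 for FOXOA3 over GFP FSH, where 12.6% and 7.66% of all genes were. With no floor 6 were higher and 9 lower for FSH, where 13.2% and 16.0% of all genes were. For FOXOA3 over GFP FSH, 24 of 41 were then higher and 1 lower, where 19.49% and 10.49% of all genes were. For FOXOA3-mDBD over GFP FSH, 22 of 41 were higher and 1 lower, where 19.38% and 21.98% of all genes were. For FOXOA3-mDBD over FOXOA3, 1 was lower with centring and with the mean of probe sets, where 12.8% and 14.9% of all genes were. For FOXOA3-mDBD over GFP vehicle, centring split all genes into 1843 higher and 1611 lower, and loess into 1641 and 1548, in place of 1280 and 2215. Signals near the floor limit the folds of the dim genes.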

Other observations

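Array genes outside the list were sorted by the ISRE core in their promoter window, a search chosen after the data had been seen. Of 259 such genes with the core and a signal above the floor on at least 1 array, 8 (3.09%) had both FOXO1 form signals at least 2-fold above both GFP signals, against 92 of 8427 (1.09%) without it. These 8 were Cps1, RT1-S3, Irgm2, Gbp7, Parp12, Srgn, Il1rap and Ddx60. Among them Irgm2 and Gbp7 are interferon-inducible GTPases, RT1-S3 is a class I histocompatibility gene, and Parp12 and Ddx60 are antiviral genes. Their ratios of the lower FOXO1 form signal to the higher GFP signal were 8.01 for Cps1, 6.52 for RT1-S3, 3.33 for Irgm2, 2.47 for Gbp7, 2.40 for Parp12, 2.32 for Srgn, 2.21 for Il1rap and 2.06 for Ddx60. Genes with the GAS core reached 2-fold in 7 of 604 cases (1.16%), against 1.15% of those without it, and genes with the FOXO core in 6 of 231 (2.60%), against 1.11%. Genes are not replicates, and these shares describe 4 arrays.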
